A study of Mus musculus with 2 samples.

Results

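The immediate early genes and the heat shock and chaperone genes were examined as 1 group of 31 genes in single-cell RNA sequencing of the mouse cardiac neural crest region at E9.5. The genes were taken by name from a list of these families. The rule itself uses no measured value, but the list was chosen with earlier results of these data known. Of the 31, 30 had a column among the 18131 genes of both tables: 19 immediate early members and 11 heat shock members. Expression of Fosb was not analysed here, though its promoter window is counted below. Over both libraries 19 members had at least 200 unique molecular identifiers (UMIs, each standing for 1 captured RNA molecule), and these 19 are described in full. The other 11 had fewer and are given with their counting error.

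Both libraries were made from untreated C57BL/6 embryos at E9.5, of the genotype Prdm6+/+; Wnt1-Cre2; ZsGreen1 for the WT library and Prdm6f/f; Wnt1-Cre2; ZsGreen1 for the KO library. Wnt1-Cre2 and the green reporter were shared by the 2 libraries, and the floxed Prdm6 allele is the difference in genotype. The study's methods state that a batch effect between the conditions was seen by eye in embeddings of the cells, and with 1 library each, batch and genotype cannot be told apart. Cre acts in the Wnt1 lineage, so cells of other lineages in the KO library should not carry the deletion. The protocol names no sort for the reporter. The study's methods describe samples that were barcoded and pooled, but which cell came from which embryo is not given in the sources used here. There was therefore 1 library per genotype and no replicate check. All differences below compare 2 libraries, and all intervals are 95% intervals that cover counting error only.

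After UMIs were recovered, 11958 WT cells (median depth 1597 UMIs) and 9765 KO cells (median depth 1703 UMIs) were at hand, and 26 cell barcodes occurred in both libraries. Prdm6 had 104 UMIs in the WT and 59 in the KO library. Since reads came from 3′ ends, these counts do not check the deletion. The labels call the cells cardiac neural crest cells. A marker gate placed 1.81% of WT and 1.62% of KO cells in a class with migrating neural crest markers (such as Sox10 and Foxd3). It needed at least 3 raised markers and 2 more than of any other class. However, cardiac, endothelial, erythroid, neural tube, neuronal and mesodermal cells were found beside them. The gate left 9048 WT and 7809 KO cells without a class, so 1.81% and 1.62% do not measure how many cells were neural crest. The summed erythroid markers were lower in the KO library (278 against 516 UMIs per 1000000 UMIs, CPM), as were the cardiac muscle markers (3328 against 4089 CPM) the somitic markers (241 against 286 CPM), the pharyngeal and splanchnic mesoderm markers (300.1 against 366 CPM) and the endothelial markers (362 against 397 CPM). Macrophage and megakaryocyte markers were higher (22.5 against 15.9 CPM), and the sums of the other 6 marker lists had log2 ratios between −0.11 and 0.06. With every gated class given the same weight in both libraries, the log2 ratios of the immediate early and heat shock sums over all cells, given below, were −0.28 and 0.13. Most cells had no class, so this weighting could not adjust for the mix of cell types among them.

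Immediate early genes are transcribed within minutes of a stimulus, without new protein synthesis, by factors already present in the cell. Several of them encode the Fos and Jun subunits of the transcription factor AP-1, and others encode zinc finger factors or proteins that shut the response off again. Heat shock genes are driven by heat shock factors when proteins unfold. Their constitutive relatives fold new proteins in every growing cell and are abundant in embryos. Both groups are also known to respond to the handling of tissue. Here the tissue was dissected on ice and digested with a protease in an ice water bath.

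Promoter stretches of 8 members are shown. Hspb1, Hspe1, Klf2 and Jun differed between the libraries beyond counting error, Hspa1a and Hspa1b can hardly be counted apart, and Btg2 and Dusp1 are the members with a cyclic AMP response element. RefSeq promoter windows (GRCm38.p6, 250 bases before to 50 bases after each start) were found for 25 of the 31 genes. Windows for Egr1, Hsp90aa1, Hsp90ab1, Hspa8, Ier2 and Myc were not used here. Each stretch is written 5′ to 3′ on the strand of its gene, with the matched motif in capitals: the heat shock element in the first 4, the MEF2 box in Klf2, the MEF2 box and the letters TGACATCA in Jun, and the cyclic AMP response element in Btg2 and Dusp1. They lie at chr17:34972157-34972276 (Hspa1a, minus strand), chr17:34959239-34959358 (Hspa1b, minus strand), chr5:135887799-135887918 (Hspb1, plus strand), chr1:55088054-55088083 (Hspe1, plus strand), chr8:72318912-72318971 (Klf2, plus strand), chr4:95052243-95052302 (Jun, minus strand), chr1:134079286-134079345 (Btg2, minus strand) and chr17:26508603-26508672 (Dusp1, minus strand).
Hspa1a: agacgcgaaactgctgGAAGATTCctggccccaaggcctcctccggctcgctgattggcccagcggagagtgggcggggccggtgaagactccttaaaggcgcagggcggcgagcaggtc
Hspa1b: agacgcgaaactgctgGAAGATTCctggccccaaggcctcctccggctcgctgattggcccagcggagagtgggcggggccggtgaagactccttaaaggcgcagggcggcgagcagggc
Hspb1: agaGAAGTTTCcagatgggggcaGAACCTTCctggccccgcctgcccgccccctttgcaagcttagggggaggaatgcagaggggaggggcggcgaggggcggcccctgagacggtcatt
Hspe1: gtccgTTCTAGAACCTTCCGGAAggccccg
Klf2: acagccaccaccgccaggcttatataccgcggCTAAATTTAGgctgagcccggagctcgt
Jun: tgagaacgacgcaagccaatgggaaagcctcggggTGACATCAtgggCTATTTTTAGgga
Btg2: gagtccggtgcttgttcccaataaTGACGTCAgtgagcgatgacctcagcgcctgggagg
Dusp1: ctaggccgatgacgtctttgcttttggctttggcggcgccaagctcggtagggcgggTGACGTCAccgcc

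The heat shock element was searched as a pair of inverted units, GAANNTTC or TTCNNGAA, which read the same on both strands. It occurred in the windows of 7 of the 8 heat shock members with a window, Dnajb1 being the other, and of 1 of 17 immediate early members, Jun. Of all 32851 windows in the table, 15.1% held it. A run of 3 units (GAANNTTCNNGAA or TTCNNGAANNTTC, which contains the pair) was found in 0.603% of all windows and in those of Hspd1, Hspe1 and Hsph1. Hspd1 and Hspe1 lie head to head on chromosome 1 and share the stretch printed for Hspe1, which begins 94 bases before the Hspe1 start and also overlaps an annotated exon of Hspd1. The cyclic AMP response element TGACGTCA was present in 1.79% of all windows, and among the members in Btg2 and Dusp1. The MEF2 box was present in 0.557% of all windows, and among the members in Atf3, Jun and Klf2. TGACATCA, or its reverse complement TGATGTCA, was present in 3.62% of all windows, and among the members in Jun and Klf6. The CArG box bound by serum response factor was present in 1.63% of all windows, and among the members in Zfp36. Elements farther from a start than the window reaches were not searched, nor were those of members without a window, such as Egr1 and Ier2. A match is a description of the letters and not a measured binding site.

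Immediate early transcripts were scarce in both libraries and scarcer in the KO library. The 19 members together reached 461 CPM (95% interval 452 to 471) in the WT and 380 CPM (372 to 389) in the KO library, a log2 ratio of KO over WT of −0.28 (−0.32 to −0.23). All 3 functional sets among them were lower in the KO library. The AP-1 subunits stood at 144 and 113 CPM with a log2 ratio of −0.34 (−0.42 to −0.26). The immediate early transcription factors stood at 121 and 99.3 CPM with a log2 ratio of −0.29 (−0.37 to −0.20). The response and feedback genes stood at 197 and 168 CPM with a log2 ratio of −0.23 (−0.30 to −0.16). Of the 10 immediate early members with at least 200 UMIs, 9 were lower in the KO library, and their median log2 ratio was −0.22. Of all 10513 genes with at least 200 UMIs, 60.8% were lower, and their median was −0.06.

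Among the AP-1 subunits, Jund and Jun made up nearly all UMIs. Jund (chromosome 8, 70698949 to 70700616), the subunit that is expressed without a stimulus in most tissues, had 1807 UMIs or 87.0 CPM in the WT and 1260 UMIs or 66.5 CPM in the KO library, with a log2 ratio of −0.39 (−0.49 to −0.28). Jun (chromosome 4, 95049034 to 95052222), the inducible partner of Fos, had 50.5 CPM in the WT and 42.5 CPM in the KO library, with a log2 ratio of −0.25 (−0.38 to −0.12). The 2 subunits that respond most sharply to a stimulus were almost absent. Fos had 42 UMIs in 40 WT cells and 27 UMIs in 27 KO cells, which is 0.335% and 0.276% of cells, and its log2 ratio of −0.50 had an interval that spanned 0 (−1.26 to 0.23). Junb had 87 WT and 55 KO UMIs, with a log2 ratio of −0.53 (−1.04 to −0.02).

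Among the immediate early transcription factors, Klf2 and Myc stood lowest in the KO library relative to the WT, and Egr1 stood the other way. Klf2 (chromosome 8, 72319033 to 72321656), a zinc finger factor known from endothelium exposed to blood flow, had 304 UMIs or 14.6 CPM in the WT and 176 UMIs or 9.29 CPM in the KO library, with a log2 ratio of −0.65 (−0.93 to −0.38). Myc (chromosome 15, 61985391 to 61990374), a driver of growth and ribosome production, had 815 UMIs or 39.2 CPM in the WT and 487 UMIs or 25.7 CPM in the KO library, with a log2 ratio of −0.61 (−0.77 to −0.45). Klf6, a relative of Klf2 expressed in many tissues, stood at 52.0 and 46.6 CPM with a log2 ratio of −0.16 (−0.29 to −0.03; −0.10 under either alternative scaling), and Klf4, another member of that family, at 6.21 and 6.44 CPM with a log2 ratio of 0.05 (−0.32 to 0.42). Egr1, a classical serum response gene, had 47 UMIs in 45 WT cells and 71 UMIs in 57 KO cells, with a log2 ratio of 0.73 (0.18 to 1.29). This rested on few molecules, and up to 4 of the KO UMIs came from a single cell. The stress factor Atf3 had 65 WT and 75 KO UMIs, and the nuclear receptor Nr4a1 had 78 and 67, and both intervals of the ratio spanned 0.

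Of the response and feedback genes, Ier2 was the most frequent, and it was lower in the KO library. Ier2, a short nuclear protein induced with Fos, was found in 18.6% of WT and 17.7% of KO cells at 127 and 108 CPM, with a log2 ratio of −0.24 (−0.32 to −0.15). The shares were 11.6% and 9.76% once each cell was reduced to 1000 randomly drawn UMIs (thinned), and the 1361 WT and 125 KO cells below that depth were dropped. Ier5 stood at 24.3 and 21.2 CPM (log2 ratio −0.20, −0.39 to −0.01), and the ratio turned to 0.05 in the thinned cells. Dusp1, the phosphatase that switches off MAP kinases, stood at 19.9 and 17.5 CPM, and the anti-proliferative gene Btg2 at 12.2 and 11.2 CPM. The intervals of both ratios spanned 0. Among the sparser feedback genes, Zfp36, which speeds the decay of cytokine mRNA, had 120 WT and 71 KO UMIs with a log2 ratio of −0.62 (−1.07 to −0.19), which shrank to −0.40 as a mean over cells and to −0.34 in thinned cells. Socs3, Gadd45b and Ier3 had between 27 and 86 UMIs in either library, and the intervals of their ratios spanned 0.

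The classical inducible heat shock genes were near the limit of detection in both libraries. Hspa1a and Hspa1b, the stress-inducible HSP70 pair, are neighbours on chromosome 17 with 247 of 250 promoter bases identical in the windows that hold the stretches above. The coding parts are also known to be nearly identical, so how reads were split between the pair is uncertain. Hspa1a had 6 UMIs in the WT and 5 in the KO library, and Hspa1b had 46 and 31. Their log2 ratios were −0.13 (−2.18 to 1.85) and −0.44 (−1.14 to 0.25). No cell held more than 2 UMIs of either. Dnajb1, the HSP40 partner that is induced with them, stood at 54.0 and 59.7 CPM with a log2 ratio of 0.14 (0.02 to 0.26). Hsph1, an HSP110 nucleotide exchange factor, stood at 208 and 209 CPM with a log2 ratio of 0.00 (−0.06 to 0.07).

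Of the inducible members with at least 200 UMIs, Hspb1 was the 1 lower in the KO library. Hspb1 (chromosome 5, 135887919 to 135889563), a small heat shock protein known from muscle, had 958 UMIs or 46.1 CPM in the WT and 665 UMIs or 35.1 CPM in the KO library, with a log2 ratio of −0.39 (−0.54 to −0.25). The sum of 11 cardiac muscle markers was lower as well, with a log2 ratio of −0.30. In a sum over all cells, fewer cells of a type and less RNA per cell cannot be told apart, and the values within cell classes are given further on. Summed over the 5 inducible members, the level was 311 CPM in the WT and 306 CPM in the KO library (log2 ratio −0.03, −0.08 to 0.03), a difference not detectable at this depth.

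The constitutive chaperones were abundant, found in most cells, and mostly higher in the KO library. Of the 9 heat shock members with at least 200 UMIs, constitutive or inducible, 7 had a log2 ratio above 0, beside 39.2% of all genes. The 7 include Hsph1 at 0.00 (−0.06 to 0.07), and the share of all genes was not matched for abundance. The 6 constitutive members together held 13186 CPM in the WT and 14590 CPM in the KO library, with a log2 ratio of 0.15 (0.14 to 0.15). Hspe1 (chromosome 1, 55088132 to 55091307), the mitochondrial co-chaperonin HSP10, showed the largest ratio of the 6. It stood at 1788 CPM in the WT and 2162 CPM in the KO library, with a log2 ratio of 0.27 (0.25 to 0.29). Its head-to-head neighbour Hspd1, the chaperonin HSP60 that forms a complex with it, stood at 1349 and 1530 CPM with a log2 ratio of 0.18 (0.16 to 0.20). Of the cytosolic HSP90 genes, Hsp90ab1 stood at 3939 and 4472 CPM with a log2 ratio of 0.18 (0.17 to 0.20), and Hsp90aa1 at 2997 and 3317 CPM with a log2 ratio of 0.15 (0.13 to 0.16). Dnaja1, a co-chaperone of the HSC70 protein, stood at 605 and 678 CPM with a log2 ratio of 0.16 (0.13 to 0.20). Hspa8, which encodes HSC70 itself, was the exception at 2507 and 2432 CPM with a log2 ratio of −0.04 (−0.06 to −0.03). The sign of Hspa8 turned under either alternative scaling (0.02 with the trimmed mean of M values, 0.01 with the median of ratios) and in thinned cells (0.05). Hspa8, Hsp90ab1 and Hspe1 are known to have processed pseudogenes, and how reads shared with these were counted was not given in the sources used here.

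**Figure D1:**
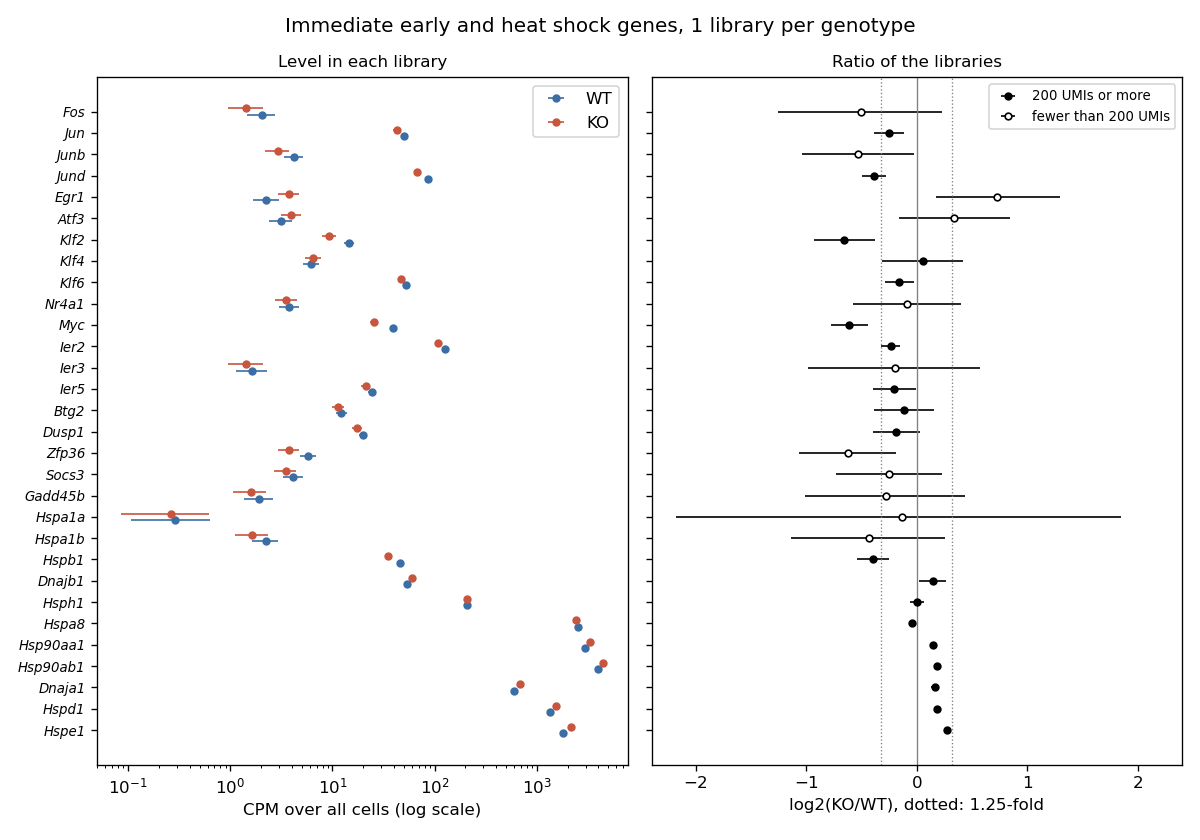
Level of each of the 30 members in CPM on a log axis (left, WT and KO libraries) and log2 ratio of KO over WT (right), with bars for 95% counting intervals, 1 library per genotype. Filled points have at least 200 UMIs over both libraries. The points of 9 of 10 such immediate early members lie left of 0, and those of 7 of 9 such heat shock members lie right of it.

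By size, few members stood out from the rest of the transcriptome. Of the 19 members with at least 200 UMIs, 4 were lower in the KO library by more than 20% (Jund, Klf2, Myc and Hspb1), or 21.1%, whereas 10.6% of all 10513 genes with that many UMIs were. Klf2 and Myc were also lower by more than 1.5-fold, beside 2.02% of all genes, but Myc passed that limit narrowly and fell short of it under 5 of 7 alternatives (log2 ratios between −0.58 and −0.55). Of the 19 members, 0 were higher by more than 25%, beside 3.86% of all genes, or by more than 1.5-fold, beside 0.371%. With scaling by the median of ratios, 4 members were lower by more than 20% and 1 (Hspe1) higher by more than 25%, beside 7.30% and 6.25% of all genes. The interval of the ratio lay below 0 for 7 of the 10 immediate early members (29.1% of all genes) and above 0 for 6 of the 9 heat shock members (16.9% of all genes). These intervals are narrower for genes with more UMIs, so the last shares depend on abundance as well as on the size of the difference.

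To see where in the embryo the members were expressed, cells were gated by marker genes into 8 classes with at least 50 cells in each library. They are named cardiac muscle-like, endothelial-like, erythroid-like, migrating neural crest-like, neural tube progenitor-like, neuron-like, somitic-like and pharyngeal and splanchnic mesoderm-like. None of their markers is a member. The gate left 9048 WT and 7809 KO cells without a class. Classes differed in depth between the libraries, with the endothelial-like cells at a median of 2148 UMIs in the WT and 2707 in the KO library and the neural tube progenitor-like cells at 1618 and 1761, so levels are given per 1000000 UMIs of the class. The cardiac gene Actc1 was found in 53.8% of WT and 52.4% of KO cells, far more than the share of cardiac muscle-like cells. A member found at a low share in every class cannot be told apart from free RNA in the droplets.

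The immediate early sum was highest in the endothelial-like cells of both libraries. There it reached 858 CPM in the WT and 673 CPM in the KO library, with a log2 ratio of −0.35 (−0.49 to −0.22). The next class stood at 589 CPM in the WT (somitic-like) and 505 CPM in the KO library (neuron-like). Without Klf2 the endothelial-like sum was 706 and 596 CPM, with a log2 ratio of −0.25 (−0.39 to −0.10). The ratio of the transcription factor set there went from −0.43 (−0.65 to −0.21) to −0.09 (−0.37 to 0.18) without Klf2. Erythroid-like cells were lowest in both, at 348 and 299 CPM, though not apart from the neural tube progenitor-like cells (382 and 330.4 CPM) by their intervals. The sum was lower in the KO library in 6 of the 8 classes. The interval of the ratio excluded 0 in the endothelial-like, cardiac muscle-like (429 and 358 CPM), somitic-like (589 and 388 CPM) and mesoderm-like cells (498 and 364 CPM). In the migrating neural crest-like cells, which belong to the Wnt1 lineage, the sum stood at 397 and 403 CPM with a log2 ratio of 0.02 (−0.27 to 0.31) that ranged from −0.16 to 0.13 over 4 alternatives. In the neuron-like cells it stood at 482 and 505 CPM (0.07, −0.36 to 0.50). Whether the classes differ from each other in this ratio was not tested, and the mesoderm value turned to 0.14 when any UMI of a marker counted toward the gate. Over the alternatives the ratio ranged from −0.29 to −0.16 in cardiac muscle-like and from −1.11 to −0.40 in somitic-like cells. In neural tube progenitor-like cells the ratio of −0.21 (−0.45 to 0.03) ranged from −0.27 to −0.001.

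**Figure D2:**
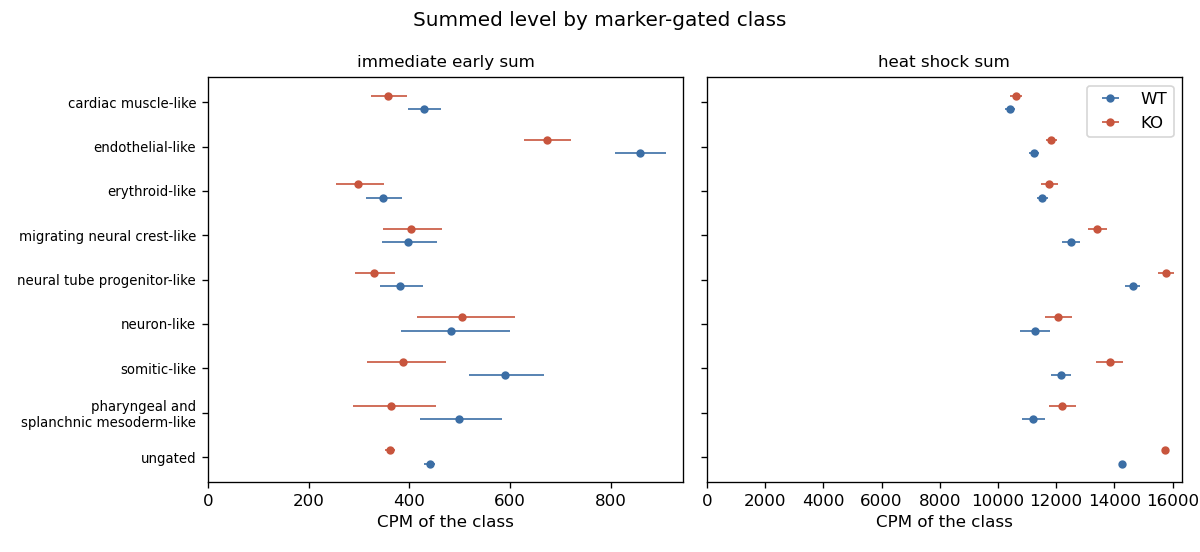
Summed level of the 19 immediate early members (left) and the 11 heat shock members (right) in CPM of each marker-gated class, WT and KO libraries, with 95% counting intervals. Endothelial-like cells lie highest on the left (858 and 673 CPM), and neural tube progenitor-like cells lie highest among the gated classes on the right (14632 and 15760 CPM).

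Klf2 showed the sharpest class pattern of the immediate early members. Endothelial-like cells held 196 of its 304 WT UMIs and 91 of its 176 KO UMIs. The level there was 153 CPM (132 to 175) in the WT and 77.1 CPM (62.1 to 94.7) in the KO library, a log2 ratio of −0.98 (−1.36 to −0.62), and it ranged from −1.16 to −0.96 over 4 alternatives. In the other classes it was at most 8.54 CPM in the WT and 6.47 CPM in the KO library, both in cardiac muscle-like cells, where the interval of the ratio spanned 0. Endothelial-like cells made up 4.84% of WT and 4.45% of KO cells. A UMI of Klf2 was found in 23.3% of WT and 14.7% of KO endothelial-like cells, and in 0.204% and 0.232% of neural tube progenitor-like cells, the lowest-level gated class with a UMI in both libraries. In thinned cells the endothelial-like shares were 12.1% and 5.75%. Ier2 was also lower in the KO endothelial-like cells, at 211 and 155 CPM with a log2 ratio of −0.44 (−0.72 to −0.17).

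Jun, Dusp1, Klf4, Atf3, Egr1 and Nr4a1 also had their highest class level in endothelial-like cells of both libraries, but their intervals there overlapped those of the next class, except for Atf3 in the KO library. Jun stood there at 105 CPM in the WT and 85.6 CPM in the KO library (mesoderm-like cells 94.2 and 49.4 CPM), and Dusp1 at 52.1 and 44.9 CPM. Atf3 stood at 15.6 and 25.4 CPM on 20 and 30 UMIs. Egr1 stood at 8.56 and 17.8 CPM on 11 and 21 UMIs. Klf4 stood at 20.2 and 26.3 CPM and Nr4a1 at 12.5 and 10.2 CPM. The intervals of all 6 ratios spanned 0. Fos had its highest class level in cardiac muscle-like cells, at 10.5 and 11.1 CPM on 16 and 12 UMIs, with intervals that overlapped those of the mesoderm-like cells. The ungated cells held 19 and 7 of its UMIs, and it had none in somitic-like or neuron-like cells of either library.

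Myc was highest in somitic-like and next in erythroid-like cells, with intervals of these classes that overlapped. In somitic-like cells it stood at 113 CPM (83.1 to 149) in the WT and 58.3 CPM (32.6 to 96.1) in the KO library on 48 and 15 UMIs, with a log2 ratio of −0.95 (−1.89 to −0.09), and across 4 alternatives the ratio lay between −1.45 and −1.04. In erythroid-like cells it stood at 72.7 and 47.9 CPM, with an interval that spanned 0, and in endothelial-like cells at 54.5 and 36.4 CPM (−0.58, −1.16 to −0.01). The ungated cells, which held most of its UMIs, showed 37.9 and 24.9 CPM with a log2 ratio of −0.60 (−0.80 to −0.41). Btg2 was highest in neuron-like cells, at 41.7 CPM (16.7 to 85.8) on 7 UMIs in the WT and 74.8 CPM (42.8 to 122) on 16 UMIs in the KO library, with a log2 ratio of 0.85 (−0.52 to 2.37). Its intervals there overlapped those of the erythroid-like cells in both libraries. Jund was spread over all classes, from 55.0 CPM in erythroid-like to 130.9 CPM in neuron-like WT cells, and in cardiac muscle-like cells it stood at 114 CPM in the WT and 78.6 CPM in the KO library (log2 ratio −0.54, −0.93 to −0.16, and −0.30 in thinned cells).

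The level of Hspb1 was by far highest in cardiac muscle-like cells. Cardiac muscle-like cells held 496 of its 958 WT UMIs and 289 of its 665 KO UMIs, at 326 CPM (298 to 356) and 267 CPM (237 to 300), and the next class stood at 23.8 CPM in the WT (neuron-like) and 27.0 CPM in the KO library (mesoderm-like). The ungated cells held a further 383 WT and 321 KO UMIs, at 26.4 and 22.9 CPM. A UMI was found in 47.5% of WT and 46.9% of KO cardiac muscle-like cells, and in 3.11% and 2.07% of endothelial-like cells. The log2 ratio within the class was −0.29 (−0.50 to −0.07), and −0.59 when any UMI of a marker counted toward the gate. Cardiac muscle-like cells made up 5.44% of WT and 3.93% of KO cells. With every class given the same weight in both libraries, the log2 ratio of Hspb1 over all cells went from −0.39 to −0.25, which is a decrease of less than 20%.

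**Figure D3:**
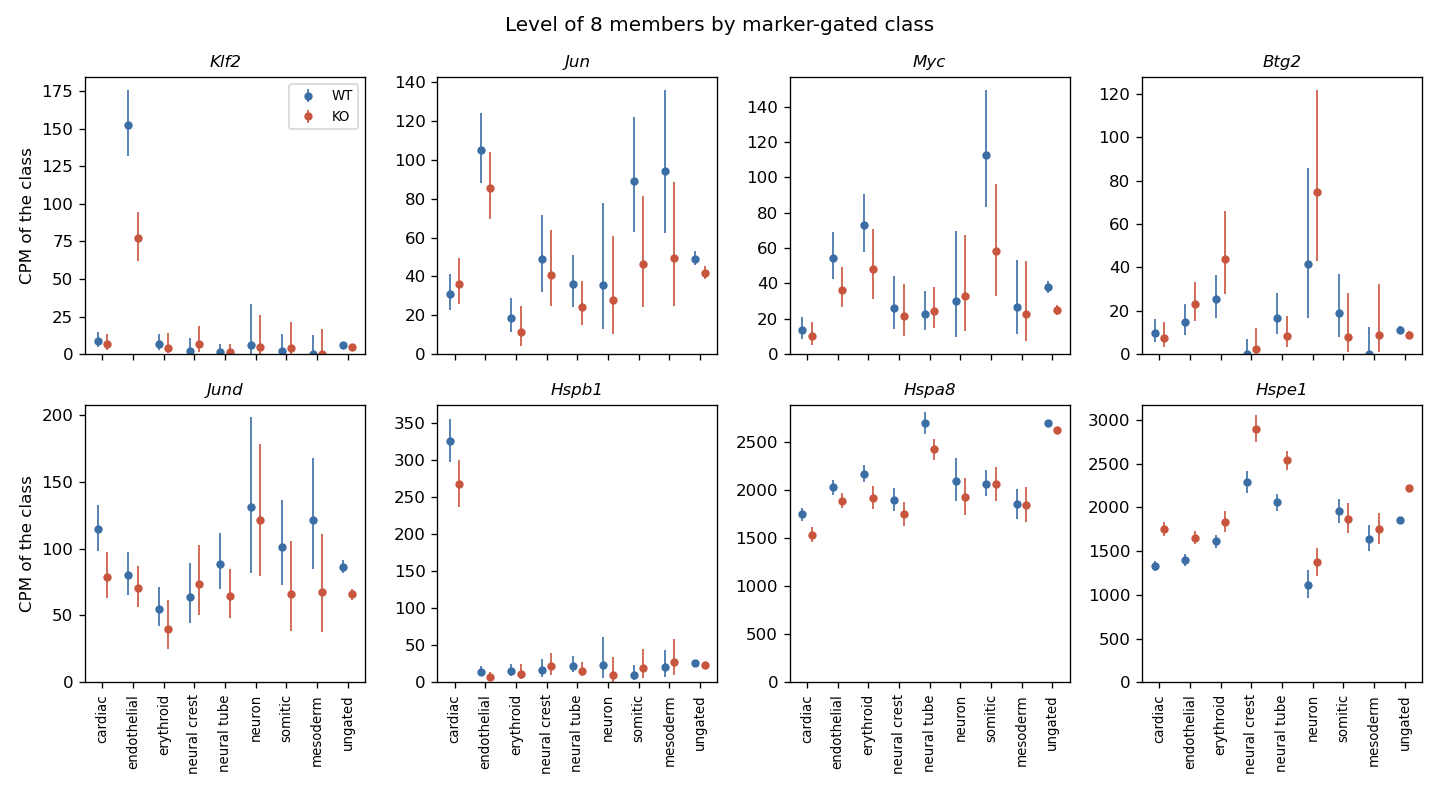
Level of 8 members in CPM of each marker-gated class and of the ungated cells, WT and KO libraries, with 95% counting intervals and axes that start at 0. Klf2 is concentrated in endothelial-like cells (153 and 77.1 CPM) and Hspb1 in cardiac muscle-like cells (326 and 267 CPM), whereas Hspa8 and Hspe1 are high in every class.

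The heat shock sum, nearly all of it constitutive chaperones, was higher in the KO library in all 8 classes, by small ratios. It was highest in neural tube progenitor-like cells (14632 CPM in the WT and 15760 CPM in the KO library, log2 ratio 0.11, 0.07 to 0.14) and lowest in cardiac muscle-like cells (10417 and 10624 CPM, log2 ratio 0.03, −0.01 to 0.06). Somitic-like cells showed the largest ratio, 0.19 (0.12 to 0.25). The 5 inducible members taken alone went the other way in 7 of the 8 classes, with an interval below 0 in cardiac muscle-like cells alone (495 and 429 CPM, log2 ratio −0.21, −0.38 to −0.04), where Hspb1 made up most of the sum. In the ungated cells, which held 4535 WT and 4402 KO of these UMIs, the ratio was 0.01 (−0.05 to 0.07). Of the 7 ratios, 2 (−0.05 in endothelial-like and −0.02 in mesoderm-like cells) were smaller than the 0.06 by which the alternative scalings shift every ratio. In migrating neural crest-like cells the inducible sum stood at 256 and 286 CPM (0.16, −0.19 to 0.52). The interval of the ratio of Hspe1 lay above 0 in 6 of the 8 classes and in the ungated cells. It stood at 1330 and 1752 CPM in cardiac muscle-like cells (log2 ratio 0.40, 0.31 to 0.49) and at 2286 and 2900 CPM in migrating neural crest-like cells (0.34, 0.23 to 0.46), the class in which it was highest in both libraries. In somitic-like cells, by contrast, Hspe1 stood at 1955 and 1872 CPM (−0.06, −0.23 to 0.10), while Hsp90ab1 had its largest ratio there (3534 and 4521 CPM, 0.36, 0.24 to 0.47). Hspa8 was lower in the KO library in all 8 classes, with log2 ratios between −0.19 and −0.01 and an interval below 0 in 4 of them. Its ratio was −0.01 in somitic-like and mesoderm-like cells, less than the 0.06 by which the alternative scalings shift every ratio. In cardiac muscle-like cells its ratio of −0.19 went to 0.00 and 0.01 when any UMI of a marker counted or when 2 markers sufficed for the gate.

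Depth moved with the sums and was compared directly. Cells of both libraries were divided into 5 bins by their UMIs. In the WT library the constitutive chaperones went from 17406 CPM in the shallowest bin (533 to 1179 UMIs) to 11084 CPM in the deepest (2421 to 4588 UMIs), and in the KO library from 18240 to 12232.5 CPM. The KO library was higher in each of the 5 bins, with log2 ratios between 0.07 and 0.31. For the inducible members the ratio was between 0.00 and 0.16 in the 4 shallower bins and −0.11 (−0.20 to −0.01) in the deepest. The immediate early sum did not fall with depth and stood between 403 and 498 CPM in the WT bins and between 333 and 401 CPM in the KO bins. Its log2 ratio was below 0 in all 5 bins. It was smallest in the shallowest bin (−0.10, −0.25 to 0.05) and lay between −0.38 and −0.25 in the other 4. The part of cell type in the link between depth and chaperone level was not tested.

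**Figure D4:**
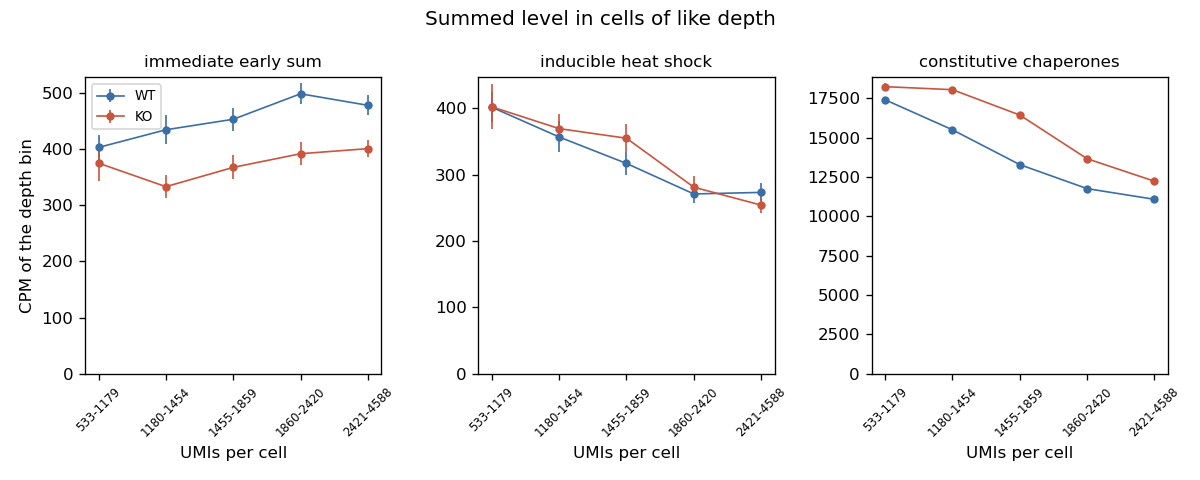
Summed level in CPM within 5 bins of UMIs per cell, for the immediate early members, the inducible heat shock members and the constitutive chaperones, WT and KO libraries, with 95% counting intervals. The constitutive chaperones fall with depth in both libraries, and the immediate early sum of the KO library lies below that of the WT library in all 5 bins.

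Per cell, the immediate early transcripts came as 0 or a few molecules. No immediate early UMI was found in 49.7% of WT and 52.0% of KO cells, or in 64.5% and 69.4% after thinning to 1000 UMIs. At least 3 different members were found in 4.07% of WT and 3.40% of KO cells, or in 0.906% and 0.508% after thinning. The highest immediate early sum in any cell was 10 UMIs in the WT and 13 UMIs in the KO library. Heat shock transcripts, in contrast, were found in every cell of both libraries, with a median of 22 UMIs per WT cell and 27 per KO cell, or 13 and 15 after thinning.

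Genes of the same pathways outside the 31 were taken from 3 lists. Of 37 other immediate early genes, 28 had at least 200 UMIs, and 5 of these were lower by more than 20% and 1 higher by more than 25% in the KO library, or 17.9% and 3.57%, beside 10.6% and 3.86% of all genes. Their median log2 ratio was −0.16. Trib1, a pseudokinase, was the one higher (35.5 and 46.9 CPM, log2 ratio 0.40, 0.26 to 0.55). Pim1, a cytokine-induced kinase, stood at 250.2 and 188 CPM (−0.42, −0.48 to −0.35), and the factors Csrnp1 and Cebpb at log2 ratios of −0.54 and −0.50. Of 31 other heat shock factors and chaperones, 28 had at least 200 UMIs. In the KO library 2 of them were lower by more than 20%, or 7.14%, which is below the 10.6% of all genes, and 0 higher by more than 25%, beside 3.86%. Their median log2 ratio was −0.05. Those 2 were the heat shock factor Hsf2 (257 and 186 CPM, −0.46, −0.53 to −0.40) and the HSP70-binding protein Hspbp1 (69.0 and 52.8 CPM, −0.39, −0.50 to −0.27). The HSP40 genes Dnajb4 and Dnajb6 stood at log2 ratios of −0.29 and 0.27. Of 8 genes of the integrated stress and unfolded protein response, 5 had at least 200 UMIs, and Asns, the asparagine synthetase induced by ATF4, was the 1 of these 5 lower by more than 20%, beside 10.6% of all genes, at 63.4 and 45.8 CPM (−0.47, −0.59 to −0.34). Atf4 itself stood at 113 and 98.9 CPM (−0.20, −0.28 to −0.11). Herpud1 had a log2 ratio of −0.29 (−0.47 to −0.12), and Sesn2 one of 0.21 with an interval that spanned 0 (−0.17 to 0.58).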

How the data were processed

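Cells of the E9.5 cardiac neural crest region were profiled by 3′ droplet sequencing, with 1 library per genotype. The authors obtained UMI counts with Cell Ranger 1.3.1, scaled each cell to the median total and took square roots, so the deposited values are scores and not counts. The genome build is mm10 in the labels, but the study's methods give a human reference plus ZsGreen1. UMIs were recovered by squaring each value and dividing by the smallest nonzero square of its cell, and 100% were whole within 0.01. Because each genotype had 1 library, no test across cells was run. CPM carry exact Poisson intervals, shares exact (Clopper-Pearson) intervals and ratios exact conditional intervals (scipy 1.17.1), all at 95%. Only the ratio intervals were tested on simulated data. The simulated counts were Poisson draws, so variation between cells or libraries was not covered. Coordinates are those of GENCODE vM21 (GRCm38).

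A class needed at least 3 raised markers and 2 more than any other class. A marker was raised with at least 5 times the UMIs that the depth of the cell and the share of the gene in the library gave. This multiple was added after seeing that the planned gate, in which any UMI counted, put 2864 WT and 2606 KO cells in the cardiac class. Shares were also computed in cells thinned to 1000 UMIs. Members with at least 200 UMIs, and up to 4 genes of each pathway list by size of ratio, are named. Limits of 25% higher, 20% lower and 1.5-fold are size rules. No doublet caller was run here, though the study names one. Other scalings, gates and cell sets were tried as alternatives. The members and lists were chosen with earlier results of these data known.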

Additional observations from a re-analysis of the deposited data

How the results depend on the processing

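Over all cells, the log2 ratio of the immediate early sum stayed below 0 and that of the heat shock sum above 0 under every alternative run. With scaling by the trimmed mean of M values the log2 ratios became −0.22 and 0.20, with the median of ratios −0.22 and 0.20, since these scalings move the median of all genes by 0.06. The median of the members' own ratios gave −0.22 for the immediate early genes. The heat shock sum was 0.19 in thinned cells, 0.19 with depth bins at equal weights (added after seeing the data), 0.13 with classes at equal weights and 0.13 without Hsp90ab1. The count of 4 members lower by more than 20% or higher by more than 25% became 2 at 1.5-fold and 10 of 30 with no UMI minimum, of which 8 were lower and 2 higher (22.3% and 12.8% of all 18131 genes at that setting). Under both scalings it was 5, with Hspe1 as the 1 higher (0.33). Of all genes, 7.1% were lower and 6.48% higher with the trimmed mean of M values, and 7.30% and 6.25% with the median of ratios. With classes at equal weights the count was 3, all lower, beside 10.2% of all genes lower and 3.63% higher. Within classes, the immediate early sum of the mesoderm-like cells turned to 0.14 under the planned gate, and that of the somitic-like cells became −1.11 in thinned cells. The heat shock sum of the cardiac muscle-like cells became 0.16 under the planned and 0.13 under the looser gate, and under the stricter gate it became 0.16 in neural tube progenitor-like and 0.29 in somitic-like cells. The causes were not tested. Of 210 ratios of single members over all cells, 186 stayed inside the counting interval and 11 changed sign, in Gadd45b, Hspa1a, Hspa8, Hsph1, Ier5 and Klf4. No paired analysis was possible because each genotype had 1 library, and for the same reason no library could be left out.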

Other observations

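The ratio of variance to mean of each member in cells thinned to 1000 UMIs was compared with that of all genes with a mean from 20% below to 25% above its own. Of the 30 members, 4 lay above the 90th percentile of such genes in both libraries, namely Jun, Klf2, Klf4 and Hspb1, a limit chosen after the values were seen. All 4 are among the 19 members with at least 200 UMIs, and 6.55% of all 10513 such genes lay above it in both libraries. Klf2 stood at 1.24 in the WT library, where the median of 1219 genes was 1.01, and at 1.07 in the KO library, where the median of 1011 genes was 0.993. Klf4 stood at 1.12 in the WT and 1.20 in the KO library, with medians of 0.995 in both. These Klf4 values rested on few molecules, with a UMI in 0.576% of thinned WT and 0.467% of thinned KO cells. Before thinning, single cells held up to 4 and 6 of its UMIs. Hspb1 stood at 1.15 and 1.08 and Jun at 1.08 and 1.06, beside medians of 1.01 in both libraries. Of the other members with at least 200 UMIs, Klf6 lay above that percentile in the WT library alone and Btg2 in the KO library alone. Whether the cell classes account for these values was not tested.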
